A study of Mus musculus with 11 samples.

Results

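The genes described here store, move and release iron and heme in macrophages: Fth1, Ftl1, Slc40a1, Slc11a1, Slc11a2, Hmox1, Blvrb, Tfrc, Lcn2 and Ncoa4. They were taken by gene symbol, and all 10 symbols were found once each among 23282 entries of the count tables. They were measured by 3′ RNA sequencing of macrophages sorted from mouse colon, by a gate that kept CD45+, CD11b+, MHCII+ and CD64+ cells and left out Ly6G+ and Ly6C+ cells. Mice were either wild type (WT, strain label WT) or of the strain labelled Csf1r-EP4-/- (here KO), which by its name lacks EP4, a prostaglandin E2 receptor encoded by Ptger4. The labels do not say which promoter or Cre removed the receptor, which exons were lost, how old the mice were or whether animals were pooled. Every sample carried the same treatment label, 2.5% dextran sodium sulphate (DSS, which injures the colon lining) in drinking water over 5 days, and its title gave day 0 or day 39. The names of the deposited tables say day 35 instead of 39, and replicate 2 of WT day 0 carries a 3 there. Titles are followed here, so the exact later day is uncertain. KO contributed 3 libraries on each day, and WT contributed 2 at day 0 and 3 at day 39. Library totals ran from 4003299 to 14207919 counts. Nothing in the labels says that libraries of a group came from separate animals, so p-values measure only the spread between these libraries.

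Macrophages take up old red cells and recycle their iron. Heme from engulfed cells is opened by heme oxygenase (Hmox1), biliverdin is then reduced by biliverdin reductases (Blvra, Blvrb), and the freed iron is either stored in ferritin (Fth1 and Ftl1 chains) or exported by ferroportin (Slc40a1), the cell's iron exporter. Slc11a1 and Slc11a2 carry divalent metal out of phagosomes and endosomes, Tfrc is the transferrin receptor through which cells import iron, Ncoa4 delivers ferritin to lysosomes for breakdown, and Lcn2 is a secreted protein that captures bacterial iron chelators. During gut inflammation macrophages are known to withhold iron from microbes, and ferroportin is the step at which export is restrained.

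Several of these transcripts carry an iron-responsive element, a hairpin bound by iron regulatory proteins when iron is scarce. Binding in the 5′ UTR blocks translation of the ferritin chains, and binding in the 3′ UTR protects the Tfrc transcript from decay. The hairpins are shown because they are the shared regulatory sequence of the storage and import genes, and because a count of RNA cannot report the translational arm. They were searched as C, 5 bases of any kind, CAGTGN and 5 bases that pair with those before the loop (G-T pairs allowed), on the sense strand of GENCODE mouse release 21 transcripts (GRCm38). The 6 bases of the loop, CAGTGN, are in capitals.
Fth1, 5′ UTR, chr19:9982733-9982759, plus strand: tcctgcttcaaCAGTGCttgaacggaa
Ftl1, 5′ UTR, chr7:45459780-45459806, minus strand: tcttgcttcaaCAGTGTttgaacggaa
Tfrc site 1, 3′ UTR, chr16:32631220-32631246, plus strand: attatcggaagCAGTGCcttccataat
Tfrc site 2, 3′ UTR, chr16:32631599-32631625, plus strand: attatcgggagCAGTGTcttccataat
Tfrc site 3, 3′ UTR, chr16:32631664-32631690, plus strand: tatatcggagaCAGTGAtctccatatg
Tfrc site 4, 3′ UTR, chr16:32631711-32631737, plus strand: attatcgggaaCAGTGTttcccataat
The Fth1 site began 87 bases and the Ftl1 site 78 bases from the transcript start, and the 4 Tfrc sites lay in a 3′ UTR of 2458 bases. Among 21745 protein-coding genes, 28 (0.129%) held such a match in a 5′ UTR and 127 (0.584%) in a 3′ UTR, over UTRs of differing length. Of 7 members searched, 3 held a match. Slc11a1, Blvrb, Lcn2 and Ncoa4 held none of these letters, and Slc40a1, Slc11a2 and Hmox1 were not searched. The 3′ counts sum all isoforms of a gene, with and without a hairpin.

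Before the members, 2 features of the libraries bear on every value. Of 6 libraries labelled KO, 3 held over 100 Ptger4 counts (replicates 1 and 3 of KO day 0 and replicate 3 of KO day 39), while both WT day 0 libraries held 0, so genotype below means the label only. Counts also dropped out: 8 of the 10 members had 10 counts or fewer in at least 1 library and over 100 in others, except Lcn2, which had at most 2 in any. Of 14 macrophage markers, 5 (Csf1r, C1qa, C1qb, C1qc and H2-Ab1) exceeded 100 counts in all 11 libraries, with Csf1r between 1329 and 12197. The genes of other gate or lineage markers dropped out as members did: Fcgr1 (CD64) had 10 counts or fewer in 6 libraries, Ptprc (CD45) in 5, Itgam (CD11b) in 4, and Cd68 and Adgre1 in 2 each, and Mertk was at 0 in all 11. Summed over 14 macrophage markers, CPM (counts times 1000000 over the TMM-scaled sum of the tested genes) ran from 6561 to 29168 at day 0 and from 9231 to 17945 at day 39. Sums of 8 skeletal muscle markers (1752 to 21977 CPM) and 8 stromal markers (3049 to 20712 CPM) were also present in every library and overlapped between days, although 2 muscle genes passed the test (Tnnc2 and Pvalb, given beside Slc40a1). In such bulk samples fewer cells of a type and less RNA per cell cannot be told apart.

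Both ferritin chains were abundant in all 11 libraries. For Fth1, the heavy chain with the ferroxidase centre, KO libraries held 20509, 9941 and 17189 counts for day 0 and 9481, 10689 and 8646 for day 39. WT libraries held 10839 and 4001 at day 0 and 4400, 7072 and 10576 at day 39. Only Fth1 and Ftl1 among the 10 members exceeded 100 counts in all 11 libraries. In CPM, KO was at 3296, 1278 and 1125, then 2452, 2112 and 2491, and WT at 1936 and 943, then 1336, 1301 and 2316. KO day 39 lay above WT day 0, a pair that differs in genotype and day, and every other pair of groups overlapped. KO went from a mean of 1900 ± 1211 CPM (SD, n = 3) to 2352 ± 208 (n = 3), the tightest group, and WT from 1440 ± 703 (n = 2) to 1651 ± 577 (n = 3). The order of the means was KO day 39, KO day 0, WT day 39 and WT day 0, and no neighbours in it differed by more than their spread.

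For Ftl1, the light chain that helps build the iron core, KO libraries held 8715, 2501 and 5436 counts for day 0 and 2616, 6201 and 2972 for day 39. WT libraries held 3901 and 10785, then 3352, 3410 and 7835. In CPM this was 1400.5, 322 and 356, then 677, 1225 and 856 for KO, and 697 and 2541, then 1018, 627 and 1716 for WT. The highest and the lowest value both fell at day 0, and all groups overlapped. The KO mean was 693 ± 613 CPM (SD, n = 3) and later 919 ± 279.8 (n = 3), the WT mean 1619 ± 1304 (n = 2) and later 1120.2 ± 552 (n = 3). Neighbours in the order of these means lay within their spread. Ferritin genes have processed copies in the mouse genome. None of the 5 copy symbols looked for was an entry of the tables, and how reads shared with them were counted is not given in the sources used here.

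Neither chain passed the test in any contrast, where between 0% and 0.301% of all tested genes did. The contrasts ask how the genotype labels differed on each day, what changed over the DSS course in each genotype and on average, and whether the course depended on genotype. They were fitted with edgeR's quasi-likelihood test to all 6987 tested genes and adjusted over them by the Benjamini-Hochberg method. Over days, averaged over both genotypes, Fth1 differed by 0.25 ± 0.66 log2 units (SE; edgeR adjusted p = 0.940), with a 95% interval from -1.04 to 1.55. Ftl1 differed by -0.06 ± 0.87 (edgeR adjusted p = 0.9998), with an interval from -1.76 to 1.64. KO against WT, Fth1 differed by 0.40 ± 0.99 at day 0 and 0.51 ± 0.88 at day 39 (edgeR adjusted p = 0.943 and 0.970). Ftl1 differed by -1.23 ± 1.28 and -0.28 ± 1.16 (edgeR adjusted p = 0.649 and 1). Within genotypes over days, Fth1 differed by 0.20 ± 0.99 in WT and 0.31 ± 0.88 in KO, and Ftl1 by -0.53 ± 1.28 in WT and 0.41 ± 1.16 in KO (edgeR adjusted p from 0.905 to 0.980). The interaction was 0.11 ± 1.32 for Fth1 and 0.94 ± 1.73 for Ftl1 (edgeR adjusted p = 0.9998 and 0.913). These intervals still admit changes of more than 1 log2 unit either way, so a change of that size was not detectable and is not shown to be absent.

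The balance of the chains was compared as well. The ratio of Fth1 to Ftl1 counts, compared between libraries only, was 2.35, 3.97 and 3.16 for KO at day 0 and 3.62, 1.72 and 2.91 at day 39. For WT it was 2.78 and 0.371, then 1.31, 2.07 and 1.35, so the genotypes overlapped on both days. Replicate 2 of WT day 0 was the only library in which Ftl1 outnumbered Fth1. After centring log2(CPM + 1) of each gene on its mean over the 11 libraries, the root-mean-square difference between the chains was 0.922. Of 251 other genes with at least 100 counts in every library, those closest to Fth1 were Calr (0.459), Psap (0.477) and Cd63 (0.489), with a median of 1.09 over all 251. Those closest to Ftl1 were H2-K1 (0.468), Rps19-ps3 (0.490) and Cd81 (0.495), with a median of 1.18. Ftl1 stood at rank 81 of 251 in closeness to Fth1.

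**Figure D1:**
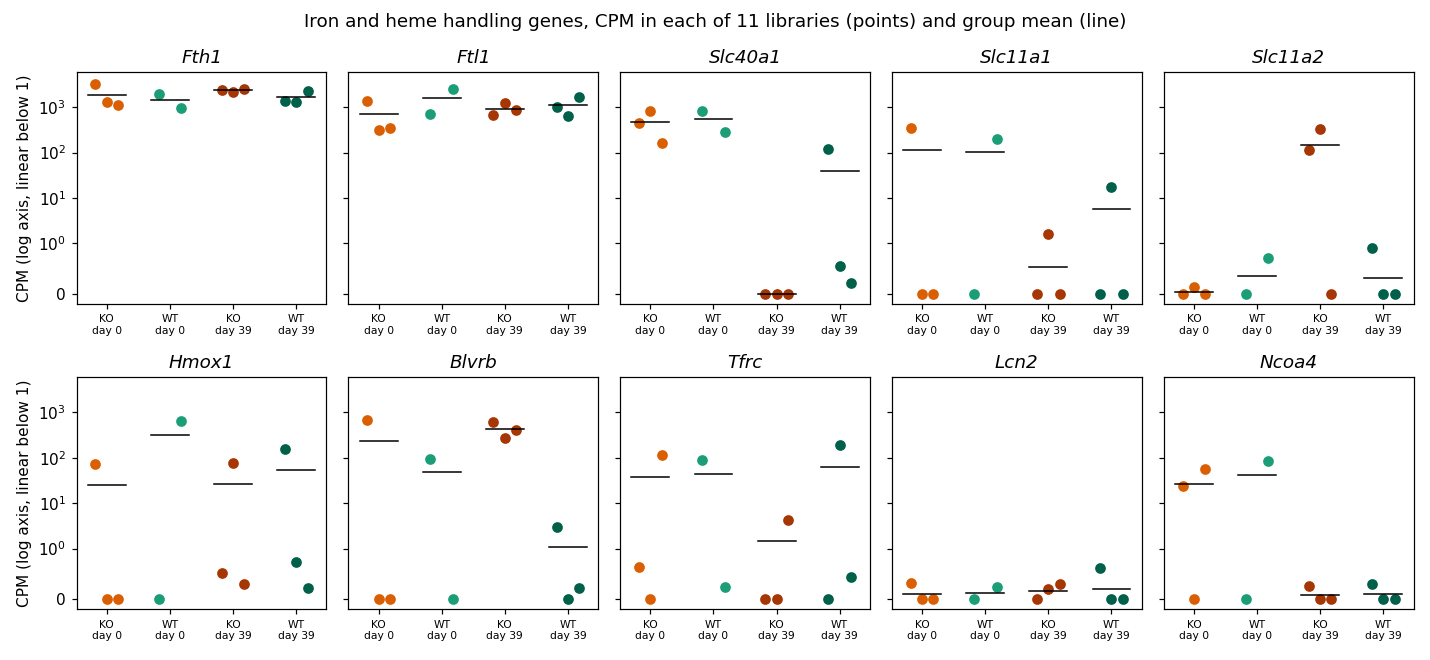
CPM of each of the 10 genes (vertical axis, logarithmic above 1 CPM and linear below) in the 4 groups, 1 point per library with a line at the group mean. Fth1 and Ftl1 are present in all 11 libraries, Slc40a1 is high in all 5 day 0 libraries and at or near 0 in 5 of 6 day 39 libraries, and Lcn2 stays below 1 CPM.

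Ferroportin was the member whose day 0 and day 39 libraries did not overlap. Slc40a1 was present in all 5 day 0 libraries, with 2769, 6474 and 2466 counts for KO and 4640 and 1232 for WT. By day 39 the KO libraries held 0, 0 and 0 counts and the WT libraries 390, 3 and 1. In CPM, KO was at 445, 832 and 161 and later at 0 in each library, and WT at 829 and 290.3 and later at 118, 0.552 and 0.219. Every day 0 library thus lay above every day 39 library, although the lowest at day 0 (161 CPM) and the highest at day 39 (118 CPM) were close. At day 0 the genotypes overlapped, with 479.6 ± 337 CPM (SD, n = 3) for KO and 559.6 ± 381 (n = 2) for WT. The log2 fold change between them was -0.22 ± 2.83, with an edgeR adjusted p of 1.

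The mean over the 5 day 0 libraries was 512 ± 308 CPM (SD) and over the 6 day 39 libraries 19.9 ± 48.3 CPM, 25.8-fold lower. That day 39 mean was set by replicate 1 of WT day 39, the only one of the 6 with more than 3 counts, and without it the fitted log2 fold change was -12.50. The fitted change averages the log2 changes of KO, with all day 39 libraries at 0, and WT, so it is not the log2 of the ratio of these means. Averaged over genotypes, the log2 fold change over days was -9.14 ± 2.60 (SE), with an edgeR adjusted p of 0.0733 and an unadjusted p of 0.000430, the 41st smallest of 6987. It therefore missed the threshold of 0.05 in the edgeR test. DESeq2 and limma-voom both called it, with log2 fold changes of -8.84 ± 2.10 (DESeq2 adjusted p = 0.000254) and -9.38 ± 1.81 (limma-voom adjusted p = 6.14e-05). Those tools also called far more genes in this contrast, 1219 of 4610 and 202 of 6987 against 21 of 6987 (0.301%) with edgeR. Leaving out the 3 libraries labelled KO that held Ptger4 counts gave -9.45 (edgeR adjusted p = 0.651). Across the 20 alternatives the fold change ran from -12.50 to -8.77, always lower at day 39, and the adjusted p from 6.14e-05 to 0.651.

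Within KO, Slc40a1 was at least 644-fold lower at day 39 (the 3 libraries at 0 set to a floor of 3 counts each, a mean of 0.744 CPM). The fitted log2 fold change was -14.46 ± 4.37 (edgeR adjusted p = 0.273). That fitted value depends on the prior count and is no bound. DESeq2 and limma-voom called it (adjusted p = 8.87e-05 and 3.38e-06), as they did 1165 of 4497 and 207 of 6987 genes. Within WT the mean was 14.1-fold lower at day 39, with a log2 fold change of -3.82 ± 2.97 (edgeR adjusted p = 0.480), and no tool called it. Without replicate 1 of WT day 39, the library with 390 counts, that change was -10.51.

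At day 39 the KO libraries lay below the WT libraries, with a log2 fold change of -10.87 ± 3.91. The adjusted p was 0.491 with edgeR, 0.0159 with DESeq2, which called 467 of 4395 genes here, and 0.952 with limma-voom. This difference came from 1 library: without replicate 1 of WT day 39 the remaining WT libraries had 3 and 1 counts, at or under the floor, and the fold change was -4.37. The interaction of genotype and day was -10.65 ± 4.83 (edgeR adjusted p = 0.324), so a different time course in the genotypes was not established.

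Drop-out was common, so the absence of Slc40a1 at day 39 was set beside the same pattern in other genes. Of 6987 tested genes, 393 had at least 100 counts in all 5 day 0 libraries. Of these, 3 were at 0 in all 3 KO day 39 libraries, and 3 had 3 counts or fewer in at least 5 of the 6 day 39 libraries (0.0429% of tested genes). In both cases they were Slc40a1, Fam134b and Tprgl. The opposite pattern, at least 100 counts in all 6 day 39 libraries and at most 3 in at least 4 of 5 day 0 libraries, was held by 13 genes. Groups by day did not overlap in CPM in 1.76% of tested genes, 1.6% higher and 0.157% lower at day 39, and Slc40a1 was the only member among them. Within WT the days did not overlap in 17.4% (12.7% higher, 4.72% lower) and within KO in 11.3% (8.07% higher, 3.21% lower), and again Slc40a1, lower, was the only member. These counts describe the libraries and were made after the values of Slc40a1 were seen.

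Markers of other cell types were set beside these values. The sum of 18 epithelial markers was between 249 and 1931 CPM at day 0 and between 2466 and 13058 CPM at day 39, without overlap. No epithelial marker passed the test (lowest edgeR adjusted p = 0.0527, Phgr1 over days), and none of the list was at 0 in all libraries. The sum of 8 monocyte markers overlapped, at 412 to 2168 CPM against 353 to 1498. Over days on average, 4 of the 7 tested monocyte markers were higher and 3 lower, with a median log2 fold change of 0.27. F13a1, a coagulation factor subunit of tissue macrophages and monocytes, was among the lower ones. Its days did not overlap, at 2184 to 7540 counts against 0 to 581 (edgeR adjusted p = 0.200). Skeletal muscle genes gave the only edgeR calls among the listed genes. Tnnc2, a troponin of fast muscle, had 2628, 21683 and 41046 counts for KO at day 0 and 13, 2 and 10 at day 39, and for WT 2095 and 1521, then 307, 11461 and 2223. It fell over days in KO (log2 fold change -9.79 ± 1.87, edgeR adjusted p = 0.000305) and over days on average (-4.25 ± 1.06, edgeR adjusted p = 0.0344), and was lower in KO than WT at day 39 (-8.65 ± 1.79, edgeR adjusted p = 0.00953). Pvalb, a calcium-binding protein of fast muscle, had 9, 22465 and 30153 counts for KO, then 3, 1 and 6, and for WT 2 and 3149, then 7, 9888 and 624. It passed in the same contrasts, at -10.79 ± 2.16, -4.99 ± 1.21 and -9.48 ± 2.06 (edgeR adjusted p = 0.000826, 0.0310 and 0.0144). The other 6 muscle genes did not pass, and the sum of the 8 was 2564 to 3584 CPM in the KO libraries of day 39. The part of epithelial, monocyte or muscle RNA in the Slc40a1 and Blvrb differences was not tested.

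**Figure D2:**
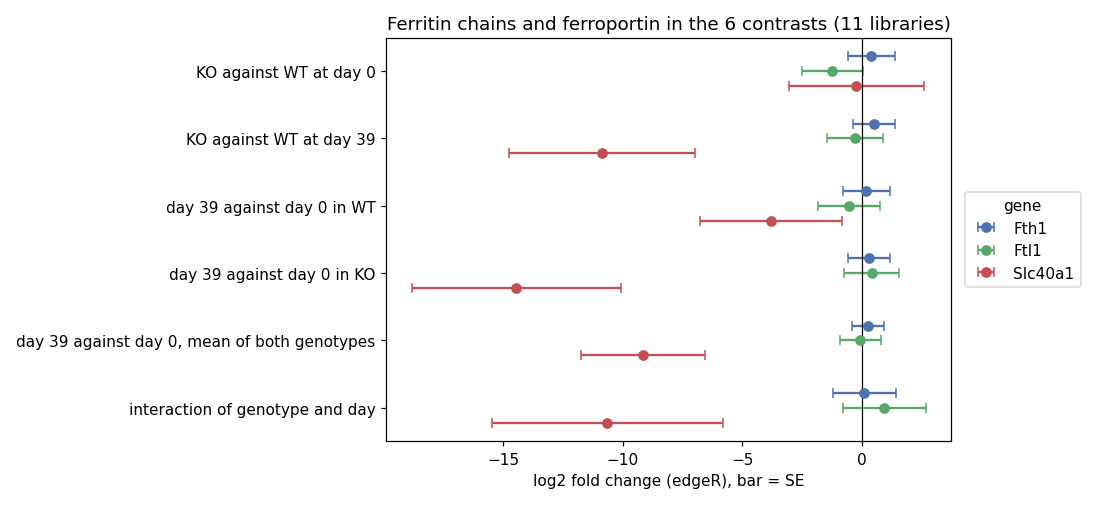
Log2 fold change of Fth1, Ftl1 and Slc40a1 in the 6 contrasts (horizontal axis), with the standard error of the edgeR fit over 11 libraries as bars. Fth1 lies between 0.11 and 0.51 and Ftl1 between -1.23 and 0.94, and Slc40a1 lies at -9.14 over days and at -0.22 between genotypes at day 0.

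**Figure D3:**
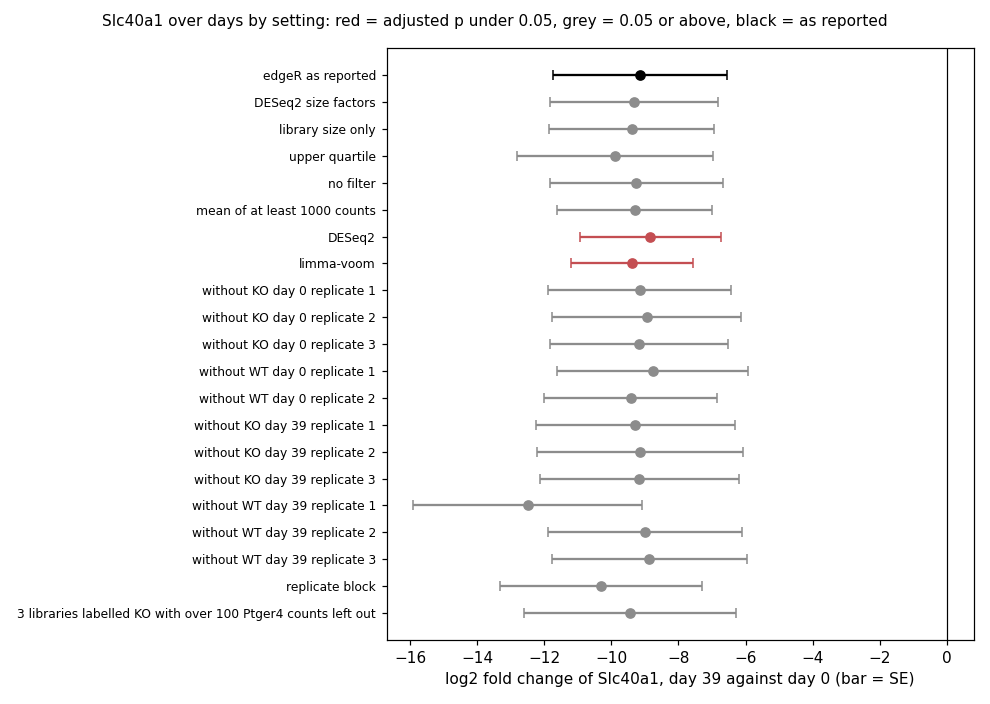
Log2 fold change of Slc40a1 over days, averaged over both genotypes, as reported and under 20 alternatives (rows), with standard errors as bars. All lie between -12.50 and -8.77, and DESeq2 and limma-voom (red) had an adjusted p under 0.05.

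Heme breakdown genes were detected in some libraries of each group. Hmox1, which opens the heme ring, had 461, 0 and 0 counts for KO at day 0 and 2, 392 and 1 at day 39, and for WT 0 and 2680, then 520, 4 and 1. Each group had exactly 1 library above 100 counts, and all groups overlapped. The mean was 24.7 ± 42.8 CPM (SD, n = 3), later 26.1 ± 44.5 (n = 3), for KO and 316 ± 447 (n = 2), later 52.9 ± 90.9 (n = 3), for WT, each SD larger than its mean. Its lowest edgeR adjusted p over the 6 contrasts was 0.699.

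Blvrb, a reductase of biliverdin and of flavins that is abundant in red cells, separated the genotype labels at day 39. On that day the KO libraries held 2380, 1367 and 1452 counts and the WT libraries 10, 0 and 1. At day 0 KO held 4312, 0 and 0 counts and WT 535 and 0, so each day 0 group had 1 library above 100 counts and the rest at 0. In CPM, KO day 39 stood at 616, 270.1 and 418 and WT day 39 at 3.04, 0 and 0.219. The means were 435 ± 173 CPM (SD, n = 3) and 1.08 ± 1.69 (n = 3), 401-fold apart. The WT mean was set by replicate 1, with 10 counts, and without it the log2 fold change given next was 11.60.

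The log2 fold change of Blvrb, KO against WT at day 39, was 8.64 ± 3.99, with an unadjusted p of 0.0303 and an edgeR adjusted p of 0.491. It did not pass with edgeR or DESeq2 (adjusted p = 0.0790) and passed with limma-voom (9.54 ± 2.49, adjusted p = 0.0328). Limma-voom called 34 of 6987 genes in this contrast. At this contrast 0.0286% of tested genes were called by edgeR, and groups did not overlap in 7.4% of them (3.41% higher and 3.99% lower in KO). Among the members these were Blvrb, higher, and Slc40a1, lower. At day 0 no member's genotypes were apart, against 12% of tested genes (6.73% higher, 5.25% lower in KO). At least 100 counts in all 3 KO libraries and at most 10 in all 3 WT libraries was a pattern of 41 tested genes, and 34 had the reverse. Over the 20 alternatives the fold change ran from 8.14 to 12.24.

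Haemoglobin transcripts were also highest in the KO libraries of day 39. The sum of Hba-a1, Hbb-bs and Hbb-bt at day 39 was 4742, 4776 and 4699 CPM for KO and 2703, 421 and 892 for WT. At day 0 it was between 805 and 1269 CPM in both genotypes, including the KO library with 4312 Blvrb counts (805 CPM). Among the 10 erythroid markers listed, Slc4a1 was at 0 in all libraries and Alas2 had at most 1 count. The sum of the 10 was 6418 to 7288 CPM in KO day 39 and 661 to 3716 in WT day 39. In the 5 day 0 libraries Hbb-b1 and Hbb-b2 had the same counts as Hbb-bs and Hbb-bt, so that sum may count reads more than once. Haemoglobin genes are near-identical copies and their single counts are uncertain. None of the erythroid markers passed the edgeR test, and their part in the Blvrb difference was not tested.

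**Figure D4:**
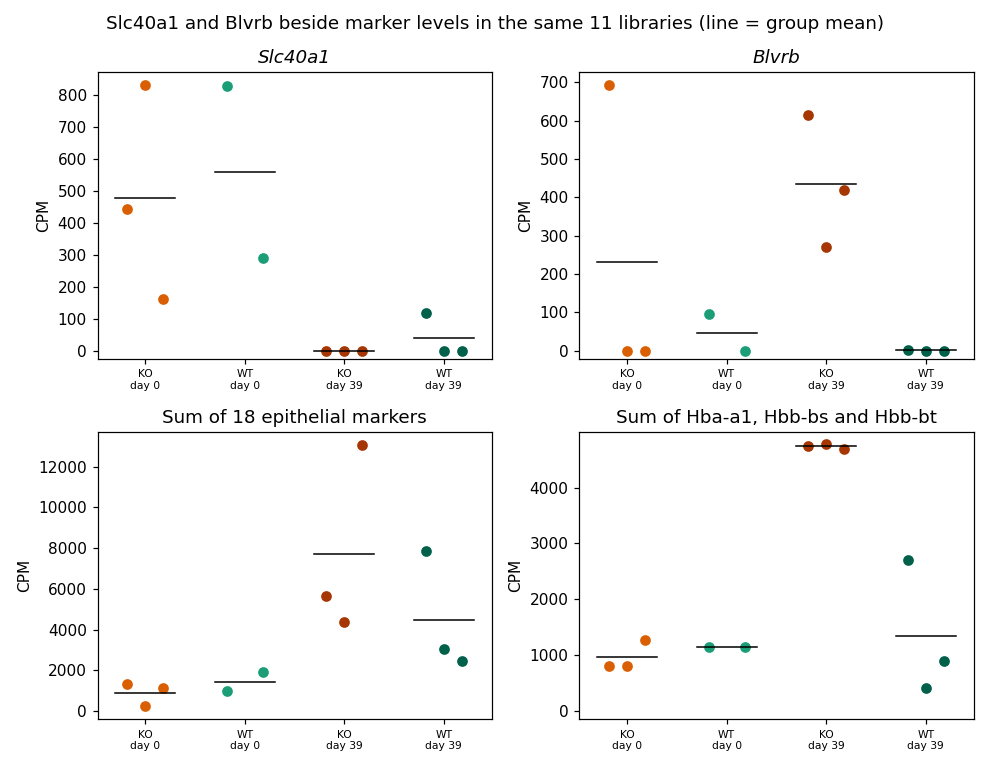
CPM per library (points) and group mean (line) of Slc40a1 above the sum of 18 epithelial markers, and of Blvrb above the sum of Hba-a1, Hbb-bs and Hbb-bt. The day 39 libraries lie at 118 CPM or less for Slc40a1 and 2466 CPM or more for the epithelial sum. The library at 118 CPM has an epithelial sum of 7855 CPM, and a relation of these values was not tested. The 3 KO day 39 libraries lie at 270.1 CPM or more for Blvrb and 4699 CPM or more for the haemoglobin sum.

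The metal transporters were seen in few libraries. Slc11a1 (NRAMP1), the phagosomal transporter of macrophages, had 2154, 0 and 0 counts for KO at day 0 and 0, 8 and 0 at day 39. WT libraries held 0 and 865, then 0, 94 and 0. The 2 libraries above 100 counts were both at day 0, 1 in each genotype, at 346 and 204 CPM. The highest day 39 library was at 17.3 CPM, but 3 of the 5 day 0 libraries were at 0, so the days overlapped. Its lowest edgeR adjusted p over the 6 contrasts was 0.313, over days.

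Slc11a2 (DMT1), the endosomal and intestinal iron transporter, had 0, 1 and 0 counts for KO at day 0 and 435, 1690 and 0 at day 39. WT libraries held 0 and 3, then 3, 0 and 0. It was above the floor of 3 counts in 2 KO day 39 libraries only, at 113 and 334 CPM, and replicate 3 of that group overlapped the other groups. Over days in KO the log2 fold change was 11.20 ± 5.77 (edgeR adjusted p = 0.275). DESeq2 called it (11.71 ± 3.56, adjusted p = 0.00807), as it did 1165 of 4497 genes, and limma-voom did not (adjusted p = 0.178). The 2 KO day 39 libraries above the floor had epithelial sums of 5642 and 4372 CPM, and the third, with Slc11a2 at 0, had 13058 CPM. The part of epithelial RNA in the Slc11a2 counts was not tested. Slc11a2 overlaps Gm5475 in RefSeq, so its count is uncertain.

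Tfrc, whose transcript holds the 4 hairpins shown above, had 4, 0 and 1730 counts for KO at day 0 and 0, 0 and 15 at day 39. WT libraries held 499 and 1, then 0, 1032 and 2. Its 3 libraries above 100 counts, at 113, 89.1 and 189.8 CPM, lay in 3 different groups, and the lowest of its 6 edgeR adjusted p-values was 0.624. Ncoa4, the ferritin receptor for lysosomal breakdown, had 148, 0 and 849 counts for KO at day 0 and 0 and 363 for WT. By day 39 the counts were 1, 0 and 0 for KO and 1, 0 and 0 for WT. It was thus above the floor in 3 of 5 day 0 libraries, at 23.8, 55.6 and 85.5 CPM, and in none of the 6 at day 39, and the days overlapped through the day 0 libraries at 0. The log2 fold change over days was -8.23 ± 3.71, with an unadjusted p of 0.0267 and an edgeR adjusted p of 0.209. DESeq2 called it (adjusted p = 0.00677), as it did 1219 of 4610 genes, and limma-voom did not (adjusted p = 0.405). Without replicate 2 of WT day 0, the only WT library with Ncoa4 above the floor, it was -2.78 ± 50.6 (edgeR adjusted p = 0.9998), and over the left-out libraries the adjusted p ran from 0.170 up to that value.

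Lcn2, which neutrophils and inflamed epithelium produce in quantity, had 2, 0 and 0 counts for KO at day 0 and 0, 1 and 1 at day 39, and for WT 0 and 1, then 2, 0 and 0. Every library was at or under the floor of 3 counts, which corresponds to between 0.196 and 0.911 CPM, and the gene was not tested. Of the neutrophil markers, Mpo, Elane, Camp and Ngp were at 0 in all libraries, while Ltf reached 307 CPM, S100a9 229 CPM and S100a8 146 CPM in single libraries of day 39, and the sum of 11 markers was at most 85.4 CPM at day 0 and 307 CPM at day 39.

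Over all contrasts, 9 members were tested and edgeR called 0 of them. The background was 0.0143% of 6987 genes called in KO against WT at day 0, 0.0286% at day 39, 0.0143% over days in WT, 0.157% over days in KO, 0.301% over days on average (0.258% higher, 0.0429% lower) and 0% in the interaction. At an unadjusted p under 0.05 there were 0, 2, 0, 1, 2 and 1 members in that order, against 7.99%, 7.28%, 6.68%, 18.2%, 19.2% and 14.4% of all tested genes. Over days on average, 7 of the 9 tested members were lower and 2 higher, with a median log2 fold change of -2.10, where the median of all tested genes was 0.759 and 59.8% were higher. Passing the filter needed counts in some group, so this count does not speak for the members as a set.

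Other iron and heme genes gave the setting. Of 73 such genes in 5 lists (heme synthesis, heme transport and breakdown, iron transport, iron sensing, and mitochondrial iron and cluster assembly), 70 were listed and 34 tested. None passed in either direction in 204 edgeR tests, 25 (12.3%) had an unadjusted p under 0.05, against 12.3% of the same 6 tests over all tested genes, and the lowest adjusted p was 0.176, for Slc46a1 over days. Slc46a1, a folate and heme importer, had 805 counts in replicate 3 of KO day 0, 826 in replicate 2 of WT day 0 and 0 in the other libraries. Over days on average, 23 of the 34 were higher and 11 lower. Their median log2 fold change was 0.858, near the 0.759 of all tested genes, which moved with the setting (given below).

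Among the regulators, Pcbp1, an iron chaperone that loads ferritin, ran from 0.942 to 580.0 CPM with a median of 266 over the 11 libraries. Pcbp2, a related chaperone, ran from 1.55 to 385 CPM with a median of 103. Nfe2l2 (NRF2), a transcription factor of the antioxidant and ferritin genes, ran from 0 to 594 CPM with a median of 139. Hamp and Hamp2, the genes of hepcidin, the hormone that removes ferroportin from the cell surface, were at 0 in all libraries, and Aco1, an iron regulatory protein, had at most 4 counts. The other regulator, Ireb2, had 0 and 1 counts for WT at day 0 and 1381, 857 and 1258 at day 39 (edgeR adjusted p = 0.414 within WT). For KO it had 107, 0 and 0, then 1475, 0 and 2.

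Among transporters and heme genes, the highest means belonged to Lrp1, a scavenger receptor that takes up heme bound to hemopexin (319 ± 345 CPM, SD over 11 libraries), and Cd44, a hyaluronan receptor that can take up iron (313 ± 189 CPM). Cd44 was above 10 counts in 10 libraries and Lrp1 in 9. Trf, the gene of transferrin, averaged 133 ± 153 CPM and Cp, the ferroxidase ceruloplasmin, 84.1 ± 116. Slc48a1, which moves heme out of the phagosome, averaged 88.1 ± 117 CPM and Pgrmc1, a heme-binding membrane protein, 77.0 ± 166. In heme synthesis Tmem14c averaged 109 ± 173 CPM, Abcb10 98.6 ± 119 and Alas1, the first enzyme of the pathway outside red cells, 88.7 ± 139. In the mitochondrial list Hspa9 averaged 197 ± 283 CPM, Glrx5 57.3 ± 104 and Fdx1 53.8 ± 163. Of the 8 tested NRF2 targets outside iron handling, none passed, and the 3 highest were Prdx1 (339.9 ± 214 CPM), Txnrd1 (298 ± 483) and Srxn1 (74.2 ± 128). Prdx1 was the only one of these genes above 10 counts in all 11 libraries.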

How the data were processed

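Per the labels' protocols, sequencing used the Lexogen QuantSeq chemistry, which reads the 3′ ends of transcripts. The deposited files hold raw counts per gene symbol for 1 library each. The submitters' processing notes name Bowtie2, edgeR and the build hg19, a human build, although the symbols are of mouse. The counter, annotation, filters, strand setting and use of molecular identifiers are not given in the sources used here, and PCR copies are not independent, so floors cover counting error only.

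The main test was edgeR 4.0.16 under R 4.3.3 (filterByExpr, TMM, robust quasi-likelihood, 1 coefficient per group, 11 libraries, 6 contrasts), with Benjamini-Hochberg adjustment over 6987 genes and a threshold of 0.05. Tests are two-sided. The SE was derived from the fold change and its F statistic, and 95% intervals are normal approximations from it. DESeq2 1.42.0, limma-voom (limma 3.58.1), other scalings and filters, fits of only the groups compared, a replicate block and fits without each library were alternatives. Fits were tested on simulated data with a much smaller spread than these libraries, so that test does not show how they perform here. Members and lists were chosen with earlier results of these data known. All 10 members are named with their counts, other genes if called or among the 3 highest of an iron list. Log2 fold changes are printed for members above 10 counts in at least 6 libraries, and for others only where a tool called them or the unadjusted p was under 0.05, since a fold against libraries at 0 is not interpretable; this limit was set after the values were seen, as were the on-off patterns and genes named for them, the haemoglobin sum, F13a1, Hamp, Hamp2, Aco1 and Ireb2.

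Replicate numbers were checked for pairing. Deviations from group means of same-numbered libraries correlated at -0.0137 to 0.0697, with 0 of 15 pairs over 0.1, so the numbers do not pair the libraries.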

Additional observations from a re-analysis of the deposited data

How the results depend on the processing

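With edgeR no member was called under any scaling, filter or left-out library among those it tested, 10 without a filter, 8 or 9 when a library was left out and 3 under the filter on a mean of 1000 counts; other tools made calls. Between genotypes at day 39 DESeq2 called 1 member and limma-voom 1, over days in KO 2 and 1, and over days on average 2 and 1. DESeq2 gave an adjusted p to 4497, 4395, 4610, 4497, 4610 and 4610 genes in the 6 contrasts. It called 1399, 467, 1282, 1165, 1219 and 987 of them, so its calls of members are not read as particular to them. Of 6987 genes limma-voom called 178, 34, 169, 207, 202 and 19, and edgeR 1, 2, 1, 11, 21 and 0. Over days on average edgeR called 9 genes with library size only, 51 with the upper quartile, 2 without a filter and 0 with a mean of at least 1000 counts. Without 1 KO or day 39 library it called between 4 (replicate 1 of KO day 39 left out) and 62 (replicate 1 of KO day 0 left out). Small fold changes turned with the setting, none past the threshold, and the cause was not tested. For Fth1 between genotypes at day 0 these were -1.003 (upper quartile), -0.0243 (limma-voom) and -0.19 without the 3 libraries labelled KO that held Ptger4 counts, an alternative chosen after seeing the data. For Fth1 over days in WT they were -0.16 (DESeq2), -1.30 (upper quartile), -0.15 (size factors of DESeq2 within edgeR), -0.0228 (mean of at least 1000 counts) and -0.0726 (library size only). Over days Fth1 was at -0.00922 in KO without a filter and, on average, at -0.0126 (library size only) and -0.61 (upper quartile), and its interaction at -0.13 without a filter. Ftl1 over days on average was 0.35 with limma-voom and 0.47 without those 3 libraries, and Slc40a1 between genotypes at day 0 was 0.57 without them. Upper-quartile scaling moved the median of all genes from 1.08 to 0 at day 0 between genotypes and from 1.64 to 0.475 over days in WT. Over days on average that median, 0.759 as reported, ran from 0.0122 (mean of at least 1000 counts) to 3.60 over the alternatives. The highest was without the 3 libraries labelled KO that held Ptger4 counts.

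Leaving out each library in turn, where a lone WT day 0 library was assumed to vary like the other groups, gave some ranges that crossed 0. For Fth1 these were -0.27 to 0.88 between genotypes at day 0, -0.14 to 0.63 over days in WT and -0.46 to 0.78 in the interaction. For Ftl1 these were -2.26 to 0.13 and -0.62 to 0.16 between genotypes at day 0 and day 39, -1.35 to 0.78 and -0.54 to 0.52 over days in WT and on average, and -0.51 to 1.97 in the interaction. For Slc40a1 between genotypes at day 0 the range was -0.997 to 0.58. Its range over days on average did not cross 0, at -12.50 to -8.77 (edgeR adjusted p from 0.0693 to 0.320). Fold changes not printed, 33 of 6 members, turned in 75 of 627 alternatives, and none was called.

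A replicate block gave 1.55 for Slc40a1 between genotypes at day 0, and an edgeR adjusted p of 0.169 for Slc40a1 over days on average. Under it edgeR called 0, 1, 0, 12, 7 and 0 of all genes in the 6 contrasts and 0 members. Of 11 libraries, 6 correlated best with their own number, with low correlations, so pairing by number was neither shown nor excluded. Scaling CPM by library totals moved 2 of 110 library values by more than 1 SD. Lcn2 was at 3 counts or fewer in all libraries, so no difference in it was detectable.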
